A study of Mus musculus with 24 samples.

Results

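Olfr729, an olfactory receptor gene, was followed through the medial prefrontal cortex (mPFC) of 24 mice. It is 1 of 15456 genes in the deposited table, and was taken by its symbol, Olfr729 (ENSMUSG00000049011.2). The gene was chosen by its high values in Rum and in dul+Rum mice against control in earlier results of these data, so those comparisons are a description and carry no p-value here. The other 47 rows whose symbol starts with Olfr were used as context. So were 20 neighbours on chromosome 14, the next 10 rows on each side by position.

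The study asked how a gut bacterium acts in mice on an antidepressant. All animals were male BALB/C mice at postnatal week 11, and 6 mice made up each of 4 groups. The control group, labelled as untreated, received PBS by injection and by gavage according to the methods. The dul group received duloxetine, which blocks the reuptake of serotonin and norepinephrine, at 10 mg/kg each day by intraperitoneal injection, for 21 days before behavioral tests. The Rum group received live *R. flavefaciens*, a gut bacterium that grows without oxygen, by gavage each day for 3 days and then less often until the end. The dul+Rum group received both. Depressive-like behavior in the study was tested after 21 days of treatment. Whether the sequenced mice took these tests is not given in the sources used here. From each mouse 1 mPFC library was made, from poly(A) RNA. The mouse labels join 2 numbers, such as 9_3, and the leading number never crosses groups, so whatever it marks and the group cannot be told apart. Whole reads recovered from the deposited values came to between 12811413 and 15607343 per mouse.

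The labelled tissue was checked against marker genes. All 6 markers of cortical excitatory neurons had a row, with Slc17a7, the vesicular glutamate transporter of cortex, as the most abundant, at a mean of 25094 normalized counts. All 5 markers each of inhibitory neurons, astrocytes, oligodendrocytes and microglia had a row as well. Of 6 olfactory bulb markers, 4 had a row and none exceeded a mean of 34.4 normalized counts (Cdhr1), while Eomes and Tbx21, which mark the output neurons of the bulb, had no row. Striatum markers, 5 of 5 with a row and Ppp1r1b the most abundant (mean 823), summed to between 1075 and 1573 normalized counts in control mice, but to 3620 in Rum mouse 8_4 and 2138 in dul+Rum mouse 11_4. Within groups the log2 striatum sum and Olfr729 had r = -0.25 over 24 mice.

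Olfactory receptors are G protein-coupled receptors of the cilia of sensory neurons in the nose. Each mature neuron there expresses a single receptor gene out of a very large family, and the signal runs through the G protein subunit Gnal, the adenylyl cyclase Adcy3 and a cyclic nucleotide-gated channel. Transcripts of some family members are also detected outside the nose, the brain included, where their role is mostly unknown.

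Olfr729 lies on chromosome 14 of GRCm38, on the minus strand, at chr14:50144731-50152910 (GENCODE M21). The receptor is encoded by a single exon, with the coding sequence and stop codon, 972 bases in all, at chr14:50147901-50148872. The longest transcript has 4283 bases, of which 3170 are 3' UTR, so most of the mature transcript does not encode protein. No other annotated gene overlaps it. It sits in a cluster of receptor genes: Olfr728 ends 2051 bases away, Olfr727 15985 bases away and Olfr730 30386 bases away, and none of these had a row in the table used here. Olfr731, 80621 bases away, had one.

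Because receptor genes resemble each other, the transcript was compared with all annotated transcripts. The closest relative was Olfr727, with 70.2% identity over 890 aligned bases, and the longest run shared with it was 15 bases. Of the 4234 stretches of 50 bases in the longest transcript, 25, or 0.59%, also occurred in other genes, 229 in all. These stretches all lay within a 74-base repeat of the 3' UTR. None of the 4209 stretches of 75 bases was shared. Of 4259 stretches of 25 bases, 89, or 2.09%, were shared with 2346 other genes, between bases 491 and 3855 of the transcript. A pair of 90-base windows of the coding sequence is shown so that the distance between both genes can be seen, with capitals where the bases differ. The most alike window had 73 identical bases, at chr14:50148473-50148562 (minus strand) in Olfr729 and chr14:50126889-50126978 (plus strand) in Olfr727.
Olfr729 most alike: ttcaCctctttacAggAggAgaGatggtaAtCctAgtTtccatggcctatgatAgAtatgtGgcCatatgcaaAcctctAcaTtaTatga
Olfr727 most alike: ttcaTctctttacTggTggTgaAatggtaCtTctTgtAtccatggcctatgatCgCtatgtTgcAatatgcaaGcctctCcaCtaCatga
The least alike window had 51 identical bases, at chr14:50148374-50148463 in Olfr729 and chr14:50126988-50127077 in Olfr727.
Olfr729 least alike: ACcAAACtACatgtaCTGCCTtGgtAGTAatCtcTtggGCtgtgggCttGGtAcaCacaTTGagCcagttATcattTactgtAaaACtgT
Olfr727 least alike: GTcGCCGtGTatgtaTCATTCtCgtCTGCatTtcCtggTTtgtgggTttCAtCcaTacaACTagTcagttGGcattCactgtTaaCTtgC
Even in the window where both genes are most alike, 17 bases differ. How reads that match several genes were counted is not given in the sources used here.

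In the mPFC, Olfr729 was lowest in control mice and highest in mice given the bacterium. Control mice had 77.91, 93.33, 83.29, 63.67, 91.11 and 95.71 normalized counts, with a mean of 84.2 ± 12.0 (SD, n = 6). Mice on duloxetine alone had 148.83, 157.72, 90.61, 92.7, 121.73 and 129.09, with a mean of 123 ± 27.8 (SD, n = 6). The lowest 2 duloxetine mice lay within the range of the control mice and the other 4 lay above it. Rum mice had 177.3, 163.01, 164.54, 216.92, 187.78 and 465.02, with a mean of 229 ± 117 (SD, n = 6). Mice given both treatments had 280.08, 161.45, 247.23, 467.67, 182.94 and 237.86, with a mean of 263 ± 109 (SD, n = 6). The lowest of the 12 mice given the bacterium, at 161.45, was above the highest of the 12 other mice, at 157.72, although the gap is small. In bulk tissue, more cells of a type and more RNA per cell cannot be told apart.

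**Figure D1:**
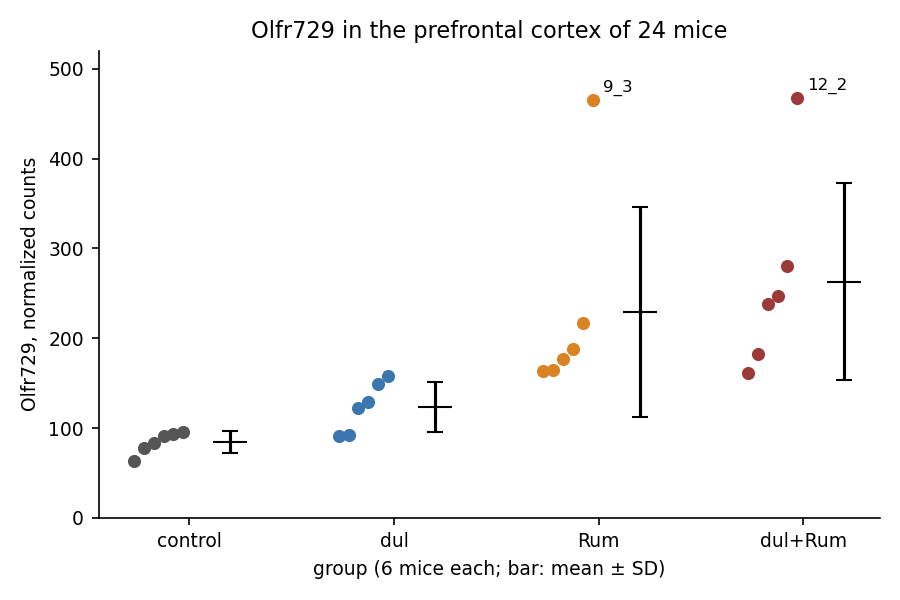
Normalized counts of Olfr729 (vertical axis) in each of 24 mice, by group, with the mean ± SD of 6 mice beside the points. All 12 mice given *R. flavefaciens* lie above all 12 others, and mice 9_3 (465.02) and 12_2 (467.67) stand above the rest of their groups.

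Few genes separated all 12 mice given the bacterium from all 12 others. Of 14974 tested genes, Olfr729 was the only one higher in every mouse given the bacterium, 0.00668% of those tested, which the choice of the gene makes a description and not a test. In the other direction 2 genes did so, 0.0134%, namely Dync2h1, a motor protein of cilia, and Rnf150, named here after their values were seen. Dync2h1 had 857 ± 48.2 normalized counts in control and 680 ± 120 in Rum mice (SD, n = 6 each). Rnf150 had 1436 ± 31.4 and 1176 ± 195 (SD, n = 6 each).

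On the log2(value + 1) scale, on which low genes appear to change less than they do, Olfr729 was 1.33 higher in Rum than in control mice, with an SE of 0.23 and a 95% interval from 0.87 to 1.80, a fold of 2.52. Of all tested genes, 0.788% were higher in every Rum than in every control mouse. It was 1.56 higher in dul+Rum than in control mice (SE 0.23, 95% interval 1.09 to 2.02), a fold of 2.94. For this pair 0.882% of tested genes were higher without overlap. The dul group stood between them, 0.53 above control (SE 0.23, 95% interval 0.07 to 0.99), with groups that overlapped. Duloxetine alone against duloxetine with the bacterium gave 1.03 more in dul+Rum (SE 0.23, 95% interval 0.57 to 1.49), without overlap, as did 0.127% of tested genes. These comparisons share groups, and the values are set side by side for that reason. By log2 fold change, Olfr729 ranked 2 of 14974 tested genes from the top in Rum against control and 3 in dul+Rum against control. It ranked 1 in dul+Rum against dul and 107 in dul against control. The gene was chosen for its high values in both bacterium groups, so these ranks are a description and not a test. In each of these comparisons 13385 genes had a smaller SE than Olfr729. The limma fit over all genes, with Benjamini-Hochberg adjustment at 0.05, called 0.0267% of genes in Rum against control and 0.1% in dul+Rum against control, and no gene in dul against control or in dul+Rum against dul. These shares were not stable. In Rum against control 4 genes were called, but 0 to 616 with 1 mouse left out. In dul+Rum against control 15 were called, but 5 to 154 with 1 mouse left out.

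Both groups given the bacterium were also set beside each other, as a description, since the gene was chosen for being high in both. Olfr729 was 0.22 higher in dul+Rum than in Rum mice on the log2 scale (SE 0.23, 95% interval -0.24 to 0.68). The ranges of both groups overlapped almost wholly. This comparison called 2.23% of all tested genes, the highest share of the 6 comparisons. The interval still allows a difference of up to 0.68 on the log2 scale. The interaction of both treatments, the change with the bacterium under duloxetine minus the change without it, was -0.31 (SE 0.32, 95% interval -0.96 to 0.35). In order of their means the groups ran control, dul, Rum, dul+Rum, and the ranges of Rum and dul+Rum, which stand next to each other in that order, overlapped. The same order of means was found in 5.56% of tested genes.

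**Figure D2:**
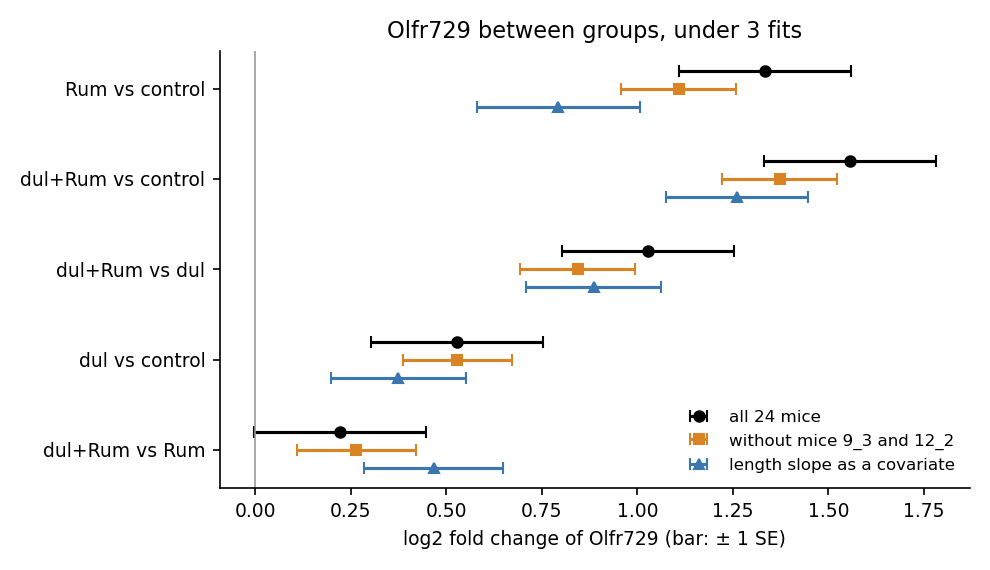
Log2 fold change of Olfr729 (horizontal axis, ± 1 SE) in 5 comparisons of groups, from the fit with all 24 mice, without mice 9_3 and 12_2, and with the length slope of each library as a covariate. Every value lies above 0, and Rum against control moves from 1.33 to 1.11 and 0.79.

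The spread among mice was larger where the bacterium was given, with 1 mouse in each of these groups far above the others. The coefficient of variation was 14.3% in control, 22.6% in dul, 51.2% in Rum and 41.6% in dul+Rum mice. Without mouse 9_3 it was 12.1% in Rum, and without mouse 12_2 it was 21.9% in dul+Rum mice. Leaving out the highest mouse of a group tends to lower this value, and no mouse was left out of control or dul. The trimmed values are therefore not set against those groups. Recovered reads of Olfr729 ran from 61 to 94 in control mice, from 91 to 161 in dul, from 156 to 457 in Rum and from 164 to 483 in dul+Rum. Counting error alone would give coefficients of variation of 11.1%, 8.90%, 6.66% and 6.01%. The variance of the reads was 1.79 times their mean in control, where counting alone gives 1, 6.50 times in dul, 59.5 times in Rum and 46.6 times in dul+Rum mice, and these values also hold the differences between animals and were not tested. For the highest Rum mouse, 457 reads have an exact Poisson 95% interval from 416 to 501, and the next mouse had 220 reads. The interval covers counting error only and leaves out differences between animals. The mouse was taken because it was the highest, so the gap is a description and not a test.

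A single mouse in each bacterium group stood far above the rest. Mouse 9_3 had 2.56 times the mean of the other 5 Rum mice, and without it the group had 182 ± 22.0 (SD, n = 5). Mouse 12_2 had 2.11 times the mean of the other dul+Rum mice, which had 222 ± 48.6 (SD, n = 5). Of the mice that share their leading numbers, 9_1 had 216.92 and 9_2 had 187.78, and 12_3 had 182.94 and 12_4 had 237.86. Without mouse 8_4, high in striatum markers, the log2 fold change in Rum against control was 1.41, and without mouse 11_4 that in dul+Rum against control was 1.56. With both high mice left out, a choice made after seeing the data, the log2 fold change was 1.11 in Rum and 1.37 in dul+Rum against control.

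Levels of different genes were compared per kilobase of the longest transcript. Olfr729 had 19.7 normalized counts per kilobase in control mice and ranked 11668 of 15438 genes with a length. In dul mice it had 28.8, in Rum mice 53.5 and in dul+Rum mice 61.4, where it ranked 8667. The median gene had 80.0 in control and 80.7 in dul+Rum mice, so Olfr729 stayed below the median in every group by this length. By the union of all exons it was just above it in dul+Rum mice, at 61.3 against 59.6 per kilobase. Over all 24 mice it had 40.8 per kilobase, against a median of 2.78 over the 48 Olfr rows. Only Olfr648, at 54.3 per kilobase, stood above it among these rows, and in Rum mice Olfr729 ranked 1.

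**Figure D3:**
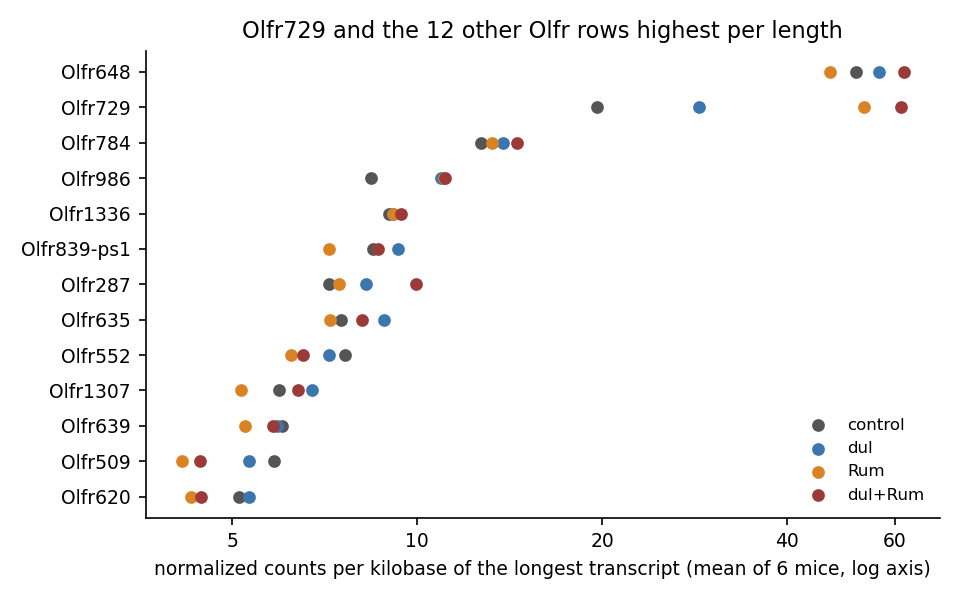
Normalized counts per kilobase of the longest transcript (horizontal log axis, mean of 6 mice per group) for Olfr729 and the 12 other Olfr rows with the highest level per length. Olfr648 and Olfr729 stand apart from the other rows, and Olfr729 moves from 19.7 in control to 61.4 in dul+Rum mice.

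The annotation lists 1407 Olfr genes, and 48 of them, 3.41%, had a row in the table. The filter that left these rows is not given in the sources used here. Of the 47 other rows, 34 had a mean of at least 10 normalized counts and were tested. None was called in any of the 6 comparisons by limma, DESeq2 or edgeR on these rows. Over all tested genes limma called 0.0267% in Rum and 0.1% in dul+Rum against control and 2.23% in dul+Rum against Rum, and DESeq2 called 3.32%, 1.45% and 4.07%, so that 0 of 34 is near the background. At an unadjusted p under 0.05, 3 of them were lower and 0 higher in Rum against control, where 19.6% of all tested genes passed that limit. These were Olfr1220, Olfr1116 and Olfr509, at -0.63, -0.51 and -0.54 on the log2 scale. In dul+Rum against control 2 were higher, Olfr1152 by 0.64 and Olfr986 by 0.41, beside 16.8% of all tested genes. The median log2 fold change over the 34 rows was -0.07 in Rum and 0.11 in dul+Rum against control, and 0.00 in both over all tested genes. The highest value of another tested Olfr row was 0.39 in Rum (Olfr986) and 0.64 in dul+Rum (Olfr1152) against control. With no minimum mean, limma called 1 more row in dul+Rum against Rum, Olfr1178, 1.26 higher at an adjusted p = 0.0407, beside 2.12% of all genes.

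The most abundant other row by raw level was Olfr648, on chromosome 7. It had between 135.61 and 164.52 normalized counts in control mice, 103.49 and 200.67 in dul mice, 108.46 and 183.52 in Rum mice and 139.8 and 223.67 in dul+Rum mice. The ranges of the 4 groups overlapped. Of the mice highest for Olfr729, mouse 9_3 had 113.97 and mouse 12_2 had 223.67, the highest Olfr648 of all mice. Olfr1307, a relative of Olfr729 with a row in the table (66.0% identity), had 92.9 ± 10.4 in control, 80.4 ± 15.5 in Rum and 99.9 ± 16.3 in dul+Rum mice (SD, n = 6 each). Olfr635, Olfr839-ps1, Olfr1336, Olfr539, Olfr784, Olfr639, Olfr986, Olfr344, Olfr552 and Olfr620 followed, with means over 24 mice from 67.8 down to 26.7. Their log2 fold changes in Rum against control lay between -0.28 (Olfr552) and 0.39 (Olfr986). Summed over the 47 rows, the family had 1113 ± 100 normalized counts in control, 1231 ± 110 in dul, 1053 ± 146 in Rum and 1219 ± 123 in dul+Rum mice (SD, n = 6 each), and mouse 12_2 ranked 2 and mouse 9_3 ranked 18 of 24 on this sum. Olfr729 made up 7.11% of all Olfr counts in control, 9.15% in dul and 17.5% in both Rum and dul+Rum mice.

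Limma called none of the rows around Olfr729 in any comparison, where it called at most 2.23% of all tested genes. DESeq2 called 1 of these rows, Ktn1, which is given below. The nearest, Olfr731, had 19.74, 8.94, 6.17, 10.44, 14.83 and 13.67 normalized counts in control mice. In Rum mice it had 7.76, 9.76, 20.04, 7.89, 10.65 and 8.14, so that the groups overlapped. In dul+Rum mice it had 9.37, 24.61, 6.18, 24.21, 20.33 and 10.68. At these levels its log2 fold changes, -0.18 in Rum and 0.27 in dul+Rum against control, did not pass the test. On the side of lower coordinates, 5 rows were taken in order of start position. These were 3632451O06Rik, Slc35f4, Naa30, an N-terminal acetyltransferase, Ap5m1, a subunit of an adaptor complex, and AC154640.4. The next row in this order, Exoc5, ends nearer to Olfr729, at 1078078 bases, than AC154640.4, at 1116162 bases. On the other side, beyond Olfr731, came Ttc5, Parp2, an enzyme of DNA repair, Tep1, a protein of telomerase and vault particles, and Gm26782. The nearest row apart from Olfr731 lay 361348 bases away.

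All 20 neighbours were tested, and limma called none in any of the 6 comparisons, where it called at most 2.23% of all tested genes, so that 0 of 20 is near the background. At an unadjusted p under 0.05, 1 was higher (Osgep, 0.23) and 2 were lower (3632451O06Rik, -0.18, and Ap5m1, -0.14) in Rum against control, 15% of the list beside 19.6% of all tested genes. In dul+Rum against control 3 were higher and 2 lower, beside 16.8% of all tested genes. Their median log2 fold change was -0.04 in Rum and -0.03 in dul+Rum against control. The highest value among them was 0.66, for AC154640.4 in dul+Rum mice, a row with a mean of 16.5 normalized counts. DESeq2 called 1 neighbour, Ktn1, in dul+Rum against Rum, 0.12 higher, beside 4.07% of all tested genes, and edgeR called none.

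**Figure D4:**
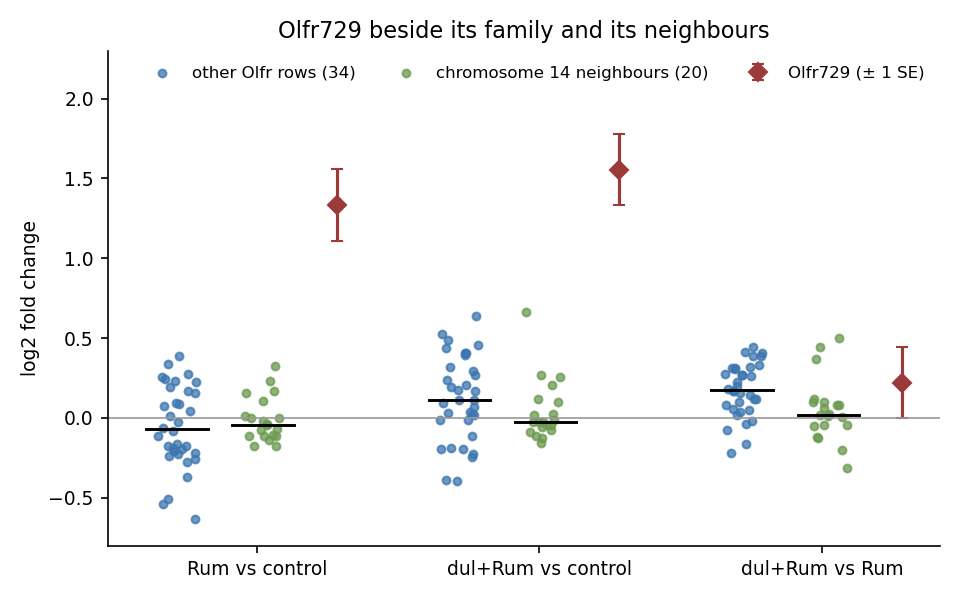
Log2 fold change (vertical axis) of 34 other Olfr rows, of 20 neighbours on chromosome 14 and of Olfr729 (± 1 SE) in 3 comparisons, with black lines at the medians of the lists. Against control Olfr729, at 1.33 and 1.56, lies above every other point, and in dul+Rum against Rum it lies among them.

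Genes that serve olfactory receptors were examined as a list of 36 symbols, of which 29 had a row and 26 were tested. In the nose, receptor proteins need chaperones to reach the membrane, and the tissue-specific chaperone genes Rtp1, Rtp2 and Gfy had no row here. Rtp4, a member of the same family with a wider distribution, had the lowest level of its sublist, with a mean of 20.8 normalized counts, and Reep1 the highest, 2132. In the signal chain, the channel subunits Cnga2 and Cngb1 had no row. Gnb1, a G protein subunit of most cells, had the highest level of this sublist, 11159, and the chloride channel Ano2 the lowest, 9.72. Gnal, the G protein subunit through which odorant receptors signal, had 2807 ± 126 normalized counts in control, 2804 ± 102 in dul, 2579 ± 377 in Rum and 2909 ± 127 in dul+Rum mice (SD, n = 6 each). Among the factors that control the choice of a receptor gene, Lhx2, a homeobox factor that binds receptor enhancers, had the highest level, 1140, and Ebf3 the lowest, 10.4.

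None of the 26 tested genes was called by limma in any comparison, near the background of at most 2.23% of all tested genes. At an unadjusted p under 0.05, 2 were higher and 3 lower in Rum against control, and 0 were higher and 4 lower in dul+Rum against control, beside 19.6% and 16.8% of all tested genes. The median log2 fold change was -0.04 and -0.02. Adcy3 was 0.29 lower in dul+Rum than in control mice, with an adjusted p = 0.0871 in limma, and DESeq2 called it at an adjusted p = 0.0269, beside 1.45% of all tested genes. It was also called when only the groups compared entered the fit, at an adjusted p = 0.0471, beside 1.31% of all tested genes, and edgeR called no gene of the list.

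Mature olfactory sensory neurons, the usual source of receptor transcripts, were sought by 6 markers. Cnga2 and Rtp1 had no row, and Gng13, a G protein subunit also found elsewhere in the brain, was the most abundant, at a mean of 139 normalized counts. Omp, the olfactory marker protein, had 19.74, 9.93, 88.43, 5.22, 7.42 and 4.21 in control mice. In dul mice it had 7.88, 35.27, 2.86, 3.06, 6.82 and 2.89. Omp had 18.84, 41.97, 1.05, 1.97, 0.97 and 2.04 in Rum mice, and 122.71, 11.81, 5.3, 2.9, 2.9 and 7.77 in dul+Rum mice. Omp was thus high in 1 or 2 mice of each group and low in the others. Mouse 10_2 had the highest Omp of all mice, 122.71, and the third highest Olfr729, 280.08, and control mouse 2_2, with 88.43 of Omp, had 83.29 of Olfr729. Mice 12_2 and 9_3, the highest for Olfr729, had 2.9 and 2.04 of Omp. They also had little Stoml3 (0.97 and 0.0), and 3.87 and 13.23 of Umodl1. Gng13 went the other way, with 171.38 in mouse 12_2 and 234.04 in mouse 9_3, the highest of all mice. The 4 markers with a row summed to 141, 157, 278, 139, 160 and 128 normalized counts in control mice. They summed to 173, 192, 108, 132, 149 and 171 in dul mice, to 212, 218, 159, 144, 136 and 249 in Rum mice, and to 361, 130, 144, 179, 136 and 169 in dul+Rum mice. After group means were taken off, the log2 sum and Olfr729 had r = 0.45 over 24 mice, a description only. In mice 9_3 and 12_2 most of this sum was Gng13, which is also found elsewhere in the brain.

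The genes whose levels ran most like Olfr729 over the mice were sought by rank. By Spearman's rho over 24 mice, the 5 highest of 14973 genes were Cox8a and Cox6b1, subunits of cytochrome c oxidase, Tma7, Tmed9, a cargo receptor of the secretory pathway, and Atp5j2, a subunit of ATP synthase. Their rho was 0.87, 0.81, 0.85, 0.81 and 0.80, and Pearson's r was 0.89, 0.73, 0.81, 0.80 and 0.81. Among the lowest were Vps13d, a lipid transfer protein, Dync2h1, Dnm3, a dynamin, and Dst, a cytoskeletal linker, with rho from -0.84 to -0.82. With mice 9_3 and 12_2 left out, rho was 0.83 for Cox8a and -0.80 for Vps13d. These 24 mice carry the group differences and share library preparation, so the values describe likeness and were not tested.

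Cox8a had 2821.22, 3193.24, 2626.16, 2928.86, 3087.19 and 3058.67 normalized counts in control mice. In Rum mice it had 3744.28, 3396.79, 3798.05, 3655.06, 3660.78 and 4603.41, all above control, with mouse 9_3 again the highest. In dul+Rum mice it had 3842.48, 3691.68, 3530.14, 4123.81, 3450.62 and 3446.5, with mouse 12_2 the highest. After the group means were taken off, the 5 genes most like Olfr729 were Ndufa1 and Ndufa3, subunits of complex I, Uqcr11, a subunit of complex III, Tmub1 and Pkig, an inhibitor of protein kinase A, with r between 0.785 (Pkig) and 0.794 (Ndufa1). Without mice 9_3 and 12_2 their r lay between 0.60 (Pkig) and 0.70 (Ndufa1), and that of Cox8a fell from 0.73 to 0.49.

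Transcript length moved with the likeness. The 100 genes most like Olfr729 by rho had a median longest transcript of 1246 bases and the 100 least like it 9364 bases, against 3431 bases over all genes. Olfr729 itself, with 4283 bases, is not short. For each library, the slope of all genes' log2 deviations on transcript length was measured, where a negative slope means that short transcripts were higher than in other libraries. Control libraries had slopes from 0.020 to 0.046 log2 units per doubling of length, dul from -0.018 to 0.042, Rum from -0.178 to 0.020 and dul+Rum from -0.036 to 0.022. The lowest slope of all belonged to mouse 9_3, which also had the highest slope on GC content of the 24 libraries. Mouse 12_2 had -0.029, the rank 20 of 24 from the highest, below every control and every dul library. Within groups, Olfr729 and the slope had r = -0.67 over 24 mice and -0.37 without mice 9_3 and 12_2. For Olfr729 and the slope on GC content r was 0.68 and 0.46. With the group differences kept, Spearman's rho over 24 mice was -0.70 for the slope on length and 0.36 for that on GC content.

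**Figure D5:**
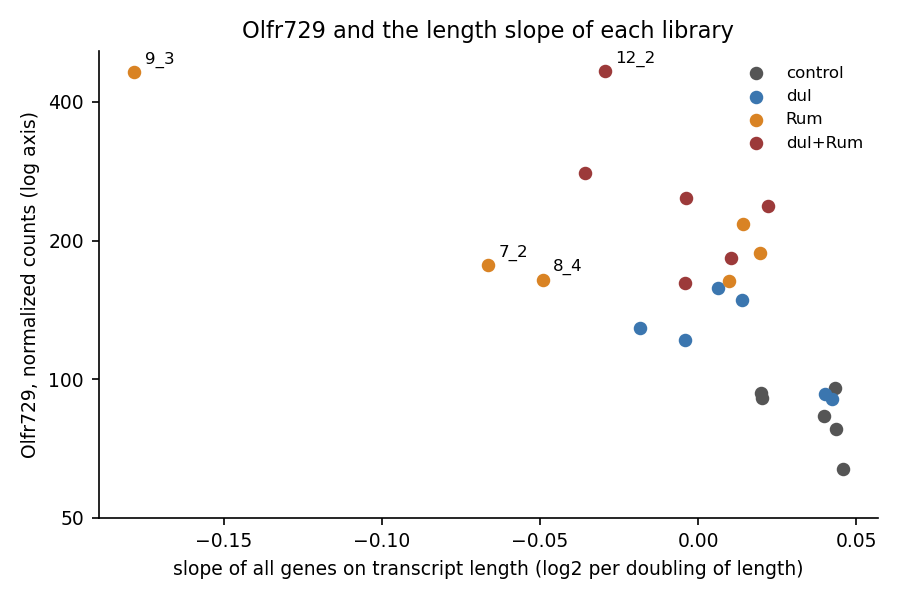
Normalized counts of Olfr729 (vertical log axis) against the slope of all genes on transcript length (horizontal axis, log2 units per doubling of length) in each of 24 libraries, by group. Mouse 9_3 has the lowest slope, -0.178, and mouse 12_2, with a similar level of Olfr729, has -0.029, below every control and every dul library.

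With the slope as a covariate, added after seeing the data, the log2 fold change of Olfr729 was 0.79 (SE 0.21) in Rum and 1.26 (SE 0.19) in dul+Rum against control. Removing a smooth trend on length from each library instead left 1.36 and 1.55, and removing one on GC content left 1.37 and 1.44. The trend on length was taken off at each gene's own length. Olfr729, with 4283 bases, lies near the median of 3431 bases, where such a trend can move it little. The small change under this setting therefore cannot show how much library composition matters. The part of library composition in the level of Olfr729 was not tested.

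Markers of cell types were summed beside Olfr729. Microglia markers, 5 of 5 with a row and Csf1r the most abundant, summed to between 2999 and 3410 normalized counts in control, 3125 and 3956 in dul, 3267 and 3992 in Rum and 3052 and 4517 in dul+Rum mice, and mouse 12_2 was the highest and mouse 9_3 next. Within groups their log2 sum and Olfr729 had r = 0.57, and 0.30 without these 2 mice. Mouse 12_2 was also the highest of all mice for the sums of astrocyte (16254), oligodendrocyte (44701) and endothelial markers (3690), with r = 0.27, 0.10 and 0.48 within groups. Without these 2 mice r was 0.06, -0.14 and 0.30, and mouse 9_3 ranked 7, 10 and 6 of 24 on these sums. Astrocyte markers had mean sums of 11910 in control, 12436 in dul, 12823 in Rum and 13442 in dul+Rum mice. In the same order microglia markers had 3229, 3579, 3600 and 3724, and endothelial markers 2599, 2732, 2813 and 2871. Both lists and the astrocyte list thus had the same order of means as Olfr729. Oligodendrocyte markers had 21977, 25014, 26658 and 25738. The ranges of the groups overlapped for each sum. RNAs of the mitochondrial genome summed to a mean of 609740 normalized counts in control, 716390 in dul, 683170 in Rum and 774380 in dul+Rum mice, with r = 0.49 within groups and 0.02 without these 2 mice. Blood markers, 5 of 5 with Hbb-bs the most abundant, had a mean sum of 349 in control, 462 in dul, 598 in Rum and 633 in dul+Rum mice, with ranges that overlapped. Excitatory neuron markers had mean sums of 36423 in control, 35974 in dul, 34588 in Rum and 34124 in dul+Rum mice, and inhibitory neuron markers 9206, 9172, 9982 and 9597 in the same order. Within groups r with Olfr729 was -0.19 for the excitatory and 0.35 for the inhibitory sum, and 0.16 and 0.39 without these 2 mice. Choroid plexus markers, 2 of 4, were highest in a Rum mouse at 731, while mouse 9_3 had 104 and mouse 12_2 had 43.6. The part of cell composition in the level of Olfr729 was not tested.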

How the data were processed

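The authors sequenced poly(A) RNA of the mPFC, 1 library per mouse, 6 mice per group, and mapped reads with TopHat2 2.1.0 and Bowtie2 2.2.6, per the processing notes. The notes name mm9 and the methods GRCm38.p5; positions in the table equalled those of GENCODE M21, on GRCm38, for 14253 of 15438 matched genes. The deposited values are signal, gene counts that the authors divided by size factors of DESeq2 1.18.1. The counter, its strand setting and the filter on low genes are not given in the sources used here. Whole reads were recovered for 99.996% of 370875 nonzero values (tolerance 0.0051). The supplement also names scaling to a fixed number of sequences, which column sums do not show.

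Groups were compared with limma 3.58.1 (R 4.3.3), using a prior with a trend, after a pseudocount of 1 and log2. A gene needed an average of 10 normalized counts, which 14974 met. The 4 groups shared 1 fit, tests were two-sided, and Benjamini-Hochberg adjustment ran over all genes, at 0.05. DESeq2 1.42.0 and edgeR 4.0.16 on recovered reads were alternatives, beside other pseudocounts, filters, scalings, a random block for the leading label number and leaving out each mouse. Scripts were tested on simulated data. Python 3.11.15 (pandas 2.3.3, scipy 1.17.1) made the tables, matplotlib 3.10.9 the figures and BLAST 2.17.0 the search for relatives.

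Olfr729, the lists and the tests were chosen with earlier results of these data known. A test of Olfr729 in dul+Rum against Rum had been planned, and its p is not given, since the same mice chose the gene. The rule for named genes took Olfr729, the 12 other Olfr rows with the highest mean, 5 rows on each side, the most and least abundant gene of each olfactory sublist with any called gene, and the 5 highest and 5 lowest genes by likeness, 1 of which is not reported here. According to the methods, mice were housed in groups; which mice shared a cage is not given in the sources used here, so the p-values take no account of cages. Transcript lengths are those of GENCODE M21.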

Additional observations from a re-analysis of the deposited data

Results flagged for a closer look

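In groups of 6 mice, the gap between the highest or lowest mouse and its nearest neighbour was divided by the range of the group, and groups above Dixon's 95% critical value are given here. Chance passes this limit in about 1 of 20 groups. Of 180 groups examined, 19 passed, many of them the same mouse, and several genes had been chosen for their likeness to Olfr729.

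Olfr729 in Rum mice passed through mouse 9_3, at 465.02 normalized counts against at most 216.92 in the other 5 mice. The same mouse was the highest Rum mouse for Cox8a (4603), Tma7 (1702), Cox6b1 (2346), Atp5j2 (1385), Ndufa1 (583), Uqcr11 (1352), Ndufa3 (750), Tmub1 (270), Tmem256 (368) and AC161763.1 (45879), and the lowest for Dst (3934). Mouse 12_2 passed for Camk2n1, at 48276 normalized counts in dul+Rum mice, and did not pass for Olfr729.

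Among other Olfr rows, Olfr639 was high in 1 control mouse (64.71), Olfr552 low in 1 control mouse (21.19) and Olfr731 high in 1 Rum mouse (20.04). The sum of the 47 other Olfr rows was high in 1 dul mouse (1437). Ap5m1 was low in 1 dul+Rum mouse (392.92). Recovered reads were high in 1 control mouse (14446451).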

How the results depend on the processing

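The log2 fold changes of Olfr729 in 6 comparisons were recomputed in 221 combinations, of which 220 kept their direction and moved by less than 1 SD of the group with the widest spread. The exception was the interaction, 0.092 instead of -0.31 with the length slope as a covariate; the cause was not tested. That covariate also took Rum against control from 1.33 to 0.79, the lowest of all settings. This move still stayed within the limit, which is wide. The SD of Rum mice on the log2 scale was 0.57, with mouse 9_3 included. Leaving out 1 mouse gave 1.11 (without 9_3) to 1.41 in Rum and 1.37 (without 12_2) to 1.68 in dul+Rum against control. The log2 fold change of dul+Rum against Rum ranged from 0.04 without 12_2 to 0.47. Genes called in Rum against control numbered 4, but 0 with only the groups compared, 221 with a random block for the leading label number, 497 with DESeq2, 2 without mice 9_3 and 12_2, 1 with a length trend removed, 0 with the length slope as a covariate, and 0 to 616 with 1 mouse left out, the most without Rum mouse 9_2. In dul+Rum against control they numbered 15, but 196, 59, 217, 71 and 7 with only the groups compared, the block, DESeq2, the trend removed and the covariate, 23 with rescaling to the 75th percentile, and 5 (without control mouse 2_1) to 154 (without dul+Rum mouse 12_4) with 1 mouse left out. In dul against control DESeq2 called 1 gene and limma 0. The olfactory list had 1 call, Adcy3, in dul+Rum against control with only the groups compared and with DESeq2, and 0 to 1 with 1 mouse left out. The block had a correlation of -0.05 between mice with the same number. Olfr729 ranked 9040 rather than 9943 per kilobase with the union of exons. Of the 5 genes highest by rho, 1 was among the 5 highest by Pearson's r and 0 after group means were taken off. No paired analysis was possible because the groups share no replicate numbers.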
